A study of Mus musculus with 8 samples.

Results

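A group of 2119 genomic intervals was examined in which SMAD4 occupancy was called in mouse limb buds at E10.5, close to a transcript 5′ end, with no called peak at the same place at E9.5. The intervals were chosen by the peak calls themselves. A peak of the E10.5 list was taken when it shared not even 1 bp with any peak of the E9.5 list, when its centre lay within 5 kb of the nearest annotated transcript 5′ end, and when it was under 4000 bp wide. These E10.5-only narrower near-start peaks are 34.3% of the 6185 peaks called at E10.5, 36.5% of the 5798 peaks of that list without an E9.5 partner, and 69.9% of the 3031 of those that lie within 5 kb of a start. Both lists together hold 8258 peaks. Score, width, distance to a start and absence from the E9.5 list are therefore properties used in the choice, or measured in the same peak calling, and are described below without a test.

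All embryos were of the NMRI strain and carried the Smad4 allele with a 3xFLAG epitope tag on both copies (Smad4 3xF/3xF), the input DNA controls included, so that no untagged control belongs to the comparison. Chromatin bound by the tagged protein was recovered with the M2 anti-FLAG antibody from forelimb and hindlimb buds at E10.5, with about 100 embryos pooled per replicate. The E9.5 samples were forelimb buds with the attached trunk (E9.75 in the protocol, about 80 embryos per replicate). A further label gives forelimb bud as the source of every sample. Each stage had 2 immunoprecipitated samples and 2 input samples, 8 in all. The tissue changed together with the stage, as E10.5 added hindlimb buds and E9.5 added trunk, so stage and tissue cannot be told apart. Each stage is represented by a single deposited list in which its replicates had already been combined, so no spread between replicates and no read depth can be given for any peak, and absence from the E9.5 list does not show that SMAD4 was unbound there. The score printed for each peak is the deposited value. The study's methods give each combined peak the best MACS p-value among its overlapping replicate peaks, and the file does not say on which scale its score holds it.

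SMAD4 is the common partner of the receptor-activated SMAD proteins. BMP and TGF-β ligands bind pairs of serine/threonine kinase receptors, the receptors phosphorylate SMAD1, SMAD5 and SMAD9 or SMAD2 and SMAD3, and these enter the nucleus with SMAD4 and contact DNA through short sequences such as CAGAC, the palindrome GTCTAGAC and GC-rich elements such as GGCGCC. In the limb bud, BMP signals act on mesenchymal patterning, on the apical ectodermal ridge and on the start of cartilage formation, together with SHH from the posterior mesenchyme and FGFs from the ridge. Many mammalian genes start in CpG-rich DNA, where the CpG dinucleotide has escaped the depletion seen in most of the genome.

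The DNA under these peaks is shown for 14 of them, 100 bp each, read from the plus strand of mm9, 5′ to 3′. Capitals mark GTCTAGAC, GGCGCC and CAGAC, which appears as GTCTG where it lies on the opposite strand, and all other bases are in lower case. Each stretch is the one with the most such letters among the 100 bp windows of the central 300 bp that are free of untranslated exon sequence, so the lines do not give their frequency. The first set holds 8 of the 11 genes of the BMP and TGF-β pathway with such a peak. Those not shown are Gdf11 and Tgfb2, with none of these letters in the central 300 bp, and Smad4, with 1 GGCGCC. The lines cover chr13:115249780-115249879 (-720 to -621 bp from the start of Fst) and chr14:35315898-35315997 (-124 to -25 bp from the start of Bmpr1a). They continue with chr9:119311739-119311838 (120 to 219 bp from the start of Acvr2b) and chr4:47365454-47365553 (-640 to -541 bp from the start of Tgfbr1). Then come chr4:9771416-9771515 (-103 to -4 bp from the start of Gdf6) and chr12:25777908-25778007 (2950 to 3049 bp from the start of Id2). The last are chr3:54559617-54559716 (113 to 212 bp from the start of Smad9) and chr13:56804259-56804358 (-112 to -13 bp from the start of Smad5).
Fst: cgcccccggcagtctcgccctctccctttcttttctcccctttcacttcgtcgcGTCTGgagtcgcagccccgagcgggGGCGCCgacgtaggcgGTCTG
Bmpr1a: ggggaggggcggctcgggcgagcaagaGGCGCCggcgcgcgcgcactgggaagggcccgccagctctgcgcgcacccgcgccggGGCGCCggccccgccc
Acvr2b: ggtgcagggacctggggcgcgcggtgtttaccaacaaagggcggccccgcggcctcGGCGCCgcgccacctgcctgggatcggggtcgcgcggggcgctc
Tgfbr1: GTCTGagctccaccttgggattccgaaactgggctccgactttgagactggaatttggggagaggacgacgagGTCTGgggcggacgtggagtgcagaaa
Gdf6: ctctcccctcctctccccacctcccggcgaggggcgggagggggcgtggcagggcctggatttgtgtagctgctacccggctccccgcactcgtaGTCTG
Id2: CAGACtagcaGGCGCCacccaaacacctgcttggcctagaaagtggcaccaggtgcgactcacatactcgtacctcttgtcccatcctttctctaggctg
Smad9: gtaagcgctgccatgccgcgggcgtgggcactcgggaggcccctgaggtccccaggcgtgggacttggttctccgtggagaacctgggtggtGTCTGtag
Smad5: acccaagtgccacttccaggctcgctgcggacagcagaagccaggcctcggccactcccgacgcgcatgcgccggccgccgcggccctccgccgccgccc
The second set first holds 2 of the 10 best-scored peaks, those at Cdk13 and Qser1, whose DNA is GC-rich and carries GGCGCC. The peaks at Rnd3, Phf21a, Glis3 and Elf2, also among the 10, hold none of the 3 kinds of letters in their central 300 bp. The rest of the 10 hold at least 1. The set ends with the only 4 of the 2119 peaks with GTCTAGAC in their central 300 bp. The lines cover chr13:17896180-17896279 (652 to 751 bp from the start of Cdk13) and chr2:104656645-104656744 (109 to 208 bp from the start of Qser1). They continue with chr4:57580710-57580809 (-321 to -222 bp from the start of Palm2) and chr5:116034493-116034592 (2087 to 2186 bp from the start of Gcn1l1). Then come chr11:120205355-120205454 (2679 to 2778 bp from the start of AL669855.1) and chr4:116803765-116803864 (2540 to 2639 bp from the start of Plk3).
Cdk13: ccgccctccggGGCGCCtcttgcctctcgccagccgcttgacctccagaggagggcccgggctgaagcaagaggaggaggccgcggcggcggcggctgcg
Qser1: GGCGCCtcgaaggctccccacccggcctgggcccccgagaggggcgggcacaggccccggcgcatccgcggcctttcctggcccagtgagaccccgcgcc
Palm2: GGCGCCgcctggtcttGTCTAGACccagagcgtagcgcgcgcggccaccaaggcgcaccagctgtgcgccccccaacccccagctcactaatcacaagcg
Gcn1l1: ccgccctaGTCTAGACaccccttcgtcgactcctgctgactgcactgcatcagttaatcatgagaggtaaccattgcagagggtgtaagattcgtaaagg
AL669855.1: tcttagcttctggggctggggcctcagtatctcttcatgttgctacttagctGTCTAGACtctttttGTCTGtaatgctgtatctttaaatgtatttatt
Plk3: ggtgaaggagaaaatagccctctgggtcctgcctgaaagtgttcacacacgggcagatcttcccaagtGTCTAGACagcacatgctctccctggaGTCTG
The line of Bmpr1a holds 18 CpG dinucleotides and that of Fst 13, both with GGCGCC, whereas AL669855.1 holds 0 and Plk3 1. Smad5 carries none of the 3 kinds of letters in the stretch shown, though its central 300 bp hold 1 GGCGCC. A match of letters is a description of the sequence and not a binding site.

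Most of the peaks covered the start itself. Of the 2119 intervals, 1788 (84.4%, 95% Wilson interval 82.8% to 85.9%) contained the nearest transcript 5′ end, and 331 did not. The share was higher in the E10.5-only near-start peaks of 4000 bp or more (88.5%) and in the E10.5 near-start peaks under 4000 bp that overlap an E9.5 peak (91.4%). It was lower in the E9.5-only near-start peaks of any width (60.9%). Those E9.5-only peaks had a median width of 1384 bp, against 2120 bp for the 2119 peaks, and the shares were not matched for width. Distances are signed along the gene from its start, with negative values upstream. The median upstream edge of the intervals lay at -856 bp and the median downstream edge at 1162 bp. The centre lay within 500 bp of the start in 1462 peaks (69.0%) and within 1000 bp in 1740 (82.1%). In comparison, 28.1% of the 912 E10.5-only near-start peaks of 4000 bp or more (broad peaks from here on) were centred within 500 bp and 47.9% within 1000 bp. The E10.5 near-start peaks under 4000 bp that overlap an E9.5 peak were centred closer, with 80.25% and 90.1%. The E9.5-only near-start peaks of any width had 52.7% and 62.6%. The centre was at or downstream of the start in 1425 peaks (67.2%) and upstream in 694 (32.8%), and the single fullest stretch was the first 500 bp of the transcript, with 955 centres (45.1%) against 507 (23.9%) in the 500 bp before it. The median signed distance was 116 bp, with quartiles of -53.5 and 424.5 bp.

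**Figure D1:**
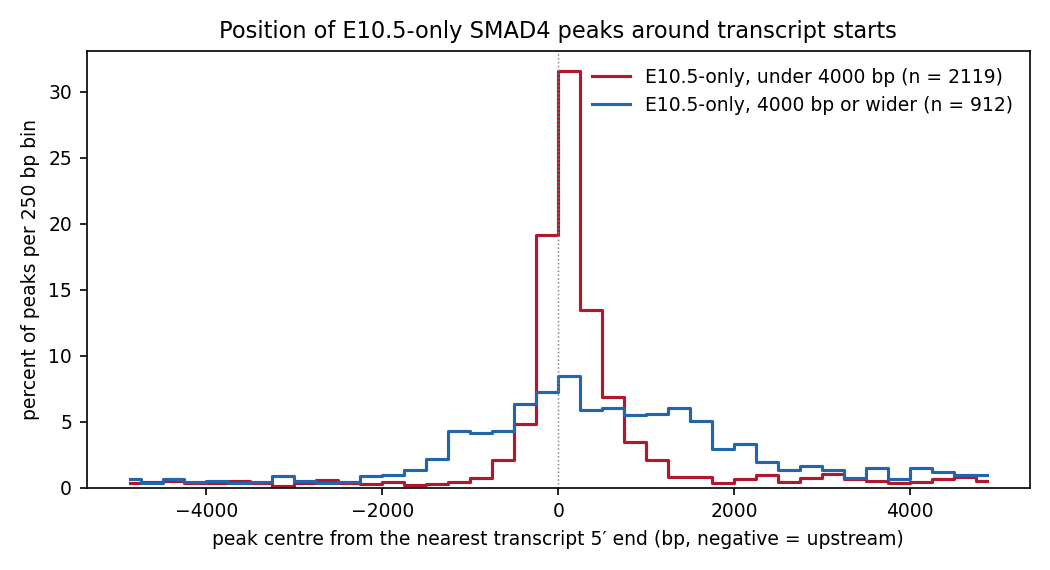
Percent of peaks per 250 bp bin (vertical axis) by the signed distance in bp of the peak centre from the nearest transcript 5′ end (horizontal axis, negative upstream) for the 2119 E10.5-only peaks under 4000 bp and the 912 wider ones. The narrower peaks reach 31.5% in the first bin downstream of the start and 19.1% in the bin before it, where the wider ones hold 8.44% and 7.24%.

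Scores of these peaks had a median of 62.9, quartiles of 54.4 and 76.9 and a range from 31.5 to 262. The broad peaks had a median score of 65.4, the E10.5 near-start peaks under 4000 bp that overlap an E9.5 peak (243 shared peaks) 78.6, and the E9.5-only near-start peaks of any width (463) 59.0. A score of 100 or more was given to 186 of the 2119 peaks (8.78%) and to 78 of the 243 shared peaks (32.1%), while a score under 50 was given to 127 (5.99%). The median width was 2120 bp, with quartiles of 1608 and 2790 bp, and the intervals covered 4.73 Mb, 24.1% of the 19.6 Mb of the whole E10.5 list. Width and score were only loosely related over the 2119 peaks (Spearman's rho = 0.12). Score was related to GC content of the central 300 bp (rho = 0.30) and inversely to distance from the start (rho = -0.20). These values are across peaks of a single combined list and share its depth, so they carry no p-value.

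**Figure D2:**
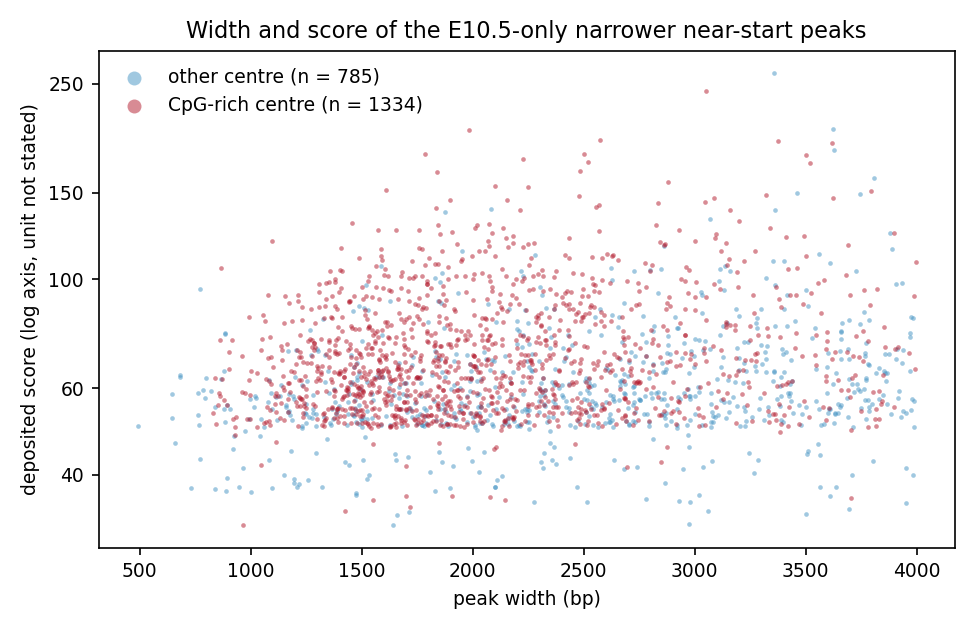
Deposited score (vertical log axis, unit not stated) against peak width in bp (horizontal axis) for the 2119 peaks, one point each, coloured by whether the central 300 bp are CpG-rich. Most points lie between scores of 50 and 100, with 127 peaks under 50 and 186 at 100 or above.

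The values on either side of the limits used in the choice were close together. Just under 4000 bp lay the peaks at Sox4 (3997 bp), Magi1 (3993 bp) and Npas4 (3990 bp), and just over it those at 1520401A03Rik (4000 bp), Bcl7a (4004 bp) and Ttc7 (4005 bp). Among the farthest centres kept were those by U6 (5000 bp) and Col6a3 (4959 bp), and the nearest left out those by Gm15221 (5002 bp), AL669940.1 (-5024 bp) and Epb4.1 (5036 bp). The 182 peaks up to 500 bp below the width limit had a CpG-rich centre in 36.3%, and the 169 broad peaks less than 500 bp above it in 27.2%. Of the 2119 peaks, 6 had an E9.5 peak within 1 kb of an edge, 46 within 10 kb and 497 (23.5%) within 100 kb.

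The best-scored peaks lay at genes of varied function. In the brackets that follow, the first number is the score and a number in bp is the signed distance of the centre from the start of the gene. The highest score was that of a peak in Rnd3, which encodes an atypical small GTPase that acts on the actin cytoskeleton (262, rank 16 of the 6185 E10.5 peaks, chr2:51001700-51005058). Its centre was in an intron 1235 bp downstream of the start, and it was the most distant of the 10 best. Cdk13, a cyclin-dependent kinase that phosphorylates RNA polymerase II, followed with 242 (chr13:17894793-17897845, centre in a coding exon at 612 bp). The peak at Phf21a, a component of histone demethylase complexes, scored 202 (chr2:92022576-92026200) and that at Cand1, the exchange factor of cullin ubiquitin ligases, 201 (chr10:118675912-118677896), with centres in untranslated exon sequence at -37 bp and 207 bp. Peaks centred in introns were found at the transcription factor genes Glis3 (183, chr19:28751922-28755549, 420 bp) and Elf2 (180, chr3:51079636-51082136, 401 bp) and at Qser1 (180, chr2:104655817-104657603, 143 bp). Fst and Acvr2b were also among the 10. They belong to the activin and BMP pathway and are described with it.

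Most of the peak centres lay in CpG-rich DNA. A window of 300 bp was called CpG-rich when its GC content was at least 50% and its observed to expected CpG ratio at least 0.6. By this measure 1334 of the 2119 centres (63.0%, interval 60.9% to 65.0%) were CpG-rich and 785 were not. Of the 10 best-scored peaks, those at Rnd3, Phf21a and Glis3 were not CpG-rich at the centre and the rest were. The CpG-rich peaks were centred closer to the start (median distance 148 bp against 751 bp), were narrower (median 1979 bp against 2453 bp) and had higher scores (median 66.5 against 57.8), and 96.9% of them contained the start against 63.1% of the others. The share with a CpG-rich centre was 46.6% in the 530 peaks with the lowest scores, 56.4% and 71.1% in the next groups of like size and 77.7% in the 530 with the highest scores. It was 80.4% for centres within 500 bp of the start, 39.9% between 500 bp and 1 kb and 12.7% at 1 to 5 kb. In windows 1 kb outside the edges of the same peaks it was 1.39% of 4238.

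**Figure D3:**
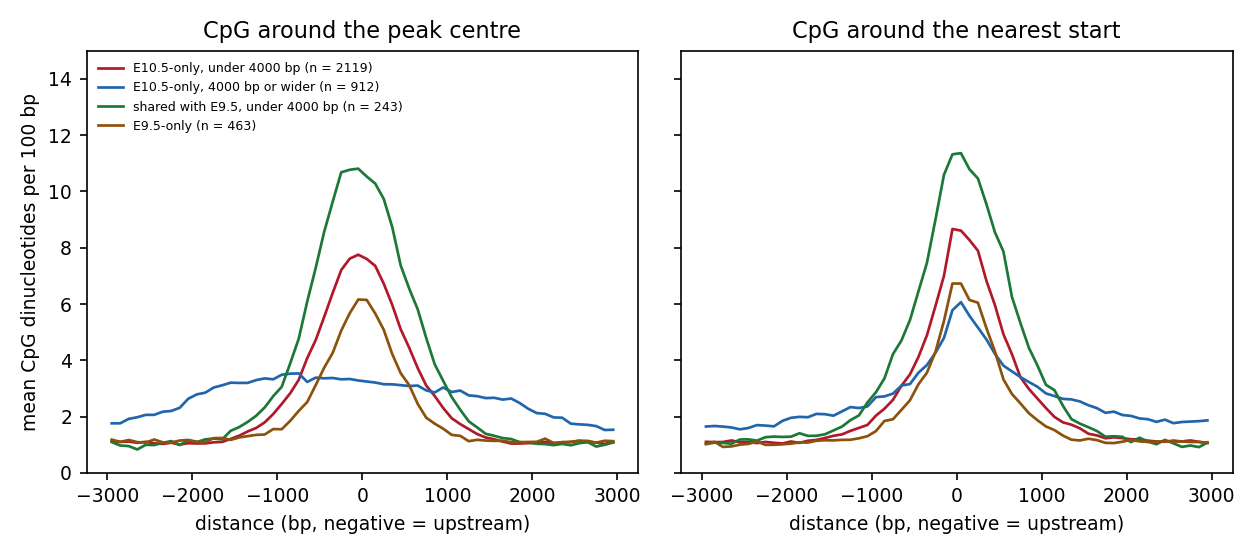
Mean number of CpG dinucleotides per 100 bp (vertical axis) by distance in bp from the peak centre (left) and from the nearest transcript 5′ end (right), for 4 classes of near-start peaks. The narrower E10.5-only peaks reach 7.75 just upstream of their centre and 8.66 just upstream of the start and fall to 2.09 and 1.70 at -1050 bp, while the wider ones show no maximum at their centre (3.28) and reach 6.07 just downstream of the start.

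The centres were then compared with those of the broad, the shared and the E9.5-only near-start peaks for 16 features of sequence and annotation that did not enter the choice. Each comparison used a two-sided Fisher's exact test on the share of peaks, with Benjamini-Hochberg adjustment over the 48 tests. Peaks of a list are not independent samples of embryos, so these tests compare the lists and not the stages. Against the broad peaks, 10 of the 16 features passed an adjusted p of 0.05, 7 of them more frequent and 3 less frequent in the narrower peaks. Against the shared peaks 3 passed, all less frequent in the E10.5-only peaks, and against the E9.5-only peaks 8 passed, 5 more frequent and 3 less frequent. Among the 1740 peaks centred under 1 kb from the start and the other classes at that distance, 9 features passed against the broad, 4 against the shared and 5 against the E9.5-only peaks. At 1 to 5 kb 1 passed against the broad, 3 against the shared and 0 against the E9.5-only peaks (2 at an unadjusted p under 0.05, Fisher's exact test). Among CpG-rich centres, a split chosen after seeing the data, 1 passed in each comparison, and among the other centres 0 against the broad peaks (2 at an unadjusted p under 0.05), 2 against the shared and 1 against the E9.5-only peaks.

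CpG-rich centres made up 63.0% of the narrower peaks and 17.7% of the broad peaks, a difference of 45.3 percentage points (95% Newcombe interval 41.97 to 48.4, which like the Wilson intervals covers the number of peaks only, adjusted p = 3.58e-121, Fisher's exact test). The broad peaks were centred farther from their starts. Among peaks centred under 1 kb from the start the shares were 73.9% and 28.6%, again 45.3 points apart (adjusted exact p = 4.88e-66), and at 1 to 5 kb the shares were 12.7% and 7.58% and the difference did not pass (adjusted exact p = 0.12). With the window placed on the nearest start instead of on the centre, an alternative added after seeing the data, the shares were 69.8% and 41.9% (adjusted exact p = 4.53e-45). Shared peaks were CpG-rich more often, at 79.8% (-16.9 points, interval -21.9 to -11.0, adjusted exact p = 5.02e-07), and E9.5-only peaks less often, at 44.3% (18.7 points, interval 13.7 to 23.6, adjusted p = 3.05e-12). Both differences were smaller among centres under 1 kb from the start, at -10.6 points from the shared peaks (adjusted exact p = 0.0025) and 7.13 points from the E9.5-only peaks (73.9% against 66.8%, adjusted exact p = 0.040). At 1 to 5 kb that from the shared peaks was -24.8 points (12.7% against 37.5% of 24 peaks, adjusted exact p = 0.035), and that from the E9.5-only peaks was 5.77 points and did not pass (adjusted exact p = 0.23). All annotated 5′ ends of protein-coding genes (69930) had a CpG-rich window in 43.5%.

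Of the SMAD-type letters, the GC-rich element was more frequent and the CAGAC box less frequent than in the broad peaks. GGCGCC, searched on both strands like all the letters below, was present in the central 300 bp of 525 peaks (24.8%), against 9.21% of the broad peaks (15.6 points, interval 12.8 to 18.1, adjusted exact p = 6.49e-24) and 42.8% of the shared peaks (-18.0 points, interval -24.6 to -11.7, adjusted p = 7.63e-08). It was present in 15.7% of the windows at all protein-coding 5′ ends and in 1.16% of the windows outside the peaks. Among CpG-rich centres alone, chosen after seeing the data, 35.8% of the narrower and 35.4% of the broad peaks had GGCGCC (adjusted exact p = 1), and 49.5% of the shared peaks (adjusted p = 0.008). Against the E9.5-only peaks, with 21.6%, the difference was 3.18 points (interval -1.18 to 7.16, adjusted exact p = 0.28). It passed with 500 bp windows (8.66 points, adjusted exact p = 0.0011) and with the window on the start (7.13 points, adjusted exact p = 0.0049), and had the opposite sign under 1 kb from the start (-3.56 points, adjusted exact p = 0.47) and among CpG-rich centres (-9.61 points, adjusted exact p = 0.098).

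CAGAC was present in 1003 peaks (47.3%), against 58.0% of the broad peaks (-10.7 points, interval -14.5 to -6.80, adjusted exact p = 4.82e-07) and 59.8% of the E9.5-only peaks (-12.5 points, interval -17.4 to -7.49, adjusted p = 5.79e-06). Its share was 46.9% in the shared peaks (0.42 points, interval -6.20 to 6.95, adjusted exact p = 1), 49.9% at all protein-coding 5′ ends and 47.8% in the windows outside the peaks. Among CpG-rich centres the difference from the broad peaks was -4.86 points (adjusted exact p = 0.52), and that from the E9.5-only peaks -17.6 points (adjusted p = 1.56e-04). The latter was -14.0 points under 1 kb from the start (adjusted exact p = 8.62e-05), and did not pass among the other centres (-2.26 points, adjusted exact p = 0.89) or at 1 to 5 kb (-3.66 points, adjusted exact p = 0.81). At least 2 copies were present in 339 peaks (16%) and at least 3 in 85. The longer CAGACC, which contains CAGAC and is counted with it, was found in 17.7% of the peaks, 23.0% of the broad peaks (adjusted exact p = 0.0024) and 17.8% of all protein-coding 5′ ends. The difference from the broad peaks did not pass under 1 kb from the start (adjusted exact p = 0.15) or with the window on the start (adjusted exact p = 0.12). It also did not at 1 to 5 kb (adjusted exact p = 0.23) or among CpG-rich or other centres (adjusted exact p = 0.42 and 0.91). With 200 and 500 bp windows it passed (adjusted exact p = 0.010 and 0.0040). GTCTAGAC was rare. It was present in 4 of the 2119 peaks (0.19%), in 1 broad, 3 shared and 5 E9.5-only peaks. The test passed against the E9.5-only peaks (-0.89 points, adjusted exact p = 0.029), though not with 200 bp windows (adjusted exact p = 0.38). It also did not pass among CpG-rich or other centres (adjusted exact p = 0.22 and 0.47), and at 1 to 5 kb the sign was opposite (0.22 points). It passed under 1 kb, with 500 bp windows and with the window on the start (adjusted exact p from 0.0012 to 0.0072). Against the shared peaks it did not pass (-1.05 points, adjusted exact p = 0.060), but it did under 1 kb from the start (adjusted exact p = 0.016), with 500 bp windows (adjusted exact p = 0.0026) and with the window on the start (adjusted exact p = 0.0072). Any of CAGAC, GTCTAGAC and GGCGCC was present in 1303 peaks (61.5%), in 62.7% of the broad peaks, 69.5% of the shared, 70.6% of the E9.5-only and 58.9% of all protein-coding 5′ ends.

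Of the letters known from general promoter elements, the GC box differed most. Its letters GGGCGG, bound by SP and KLF proteins, were present in 1089 peaks (51.4%), at least 2 copies in 597 and at least 4 in 164, and in 40.9% of all protein-coding 5′ ends. Its share was 20.9% in the broad peaks (30.5 points, interval 27.0 to 33.7, adjusted exact p = 4.90e-56), 68.3% in the shared (-16.9 points, adjusted p = 2.38e-06) and 41.0% in the E9.5-only peaks (10.4 points, adjusted p = 2.26e-04). It was also higher than in broad peaks among CpG-rich centres alone (72.3% against 59.0%, adjusted exact p = 0.010), and under 1 kb from the start (59.9% against 29.98%, adjusted exact p = 6.30e-28), but not at 1 to 5 kb (12.4% against 12.6%, adjusted p = 1). The difference from the E9.5-only peaks did not pass under 1 kb from the start (2.10 points, adjusted exact p = 0.74) and had the opposite sign among CpG-rich centres (-4.25 points) and at 1 to 5 kb (-0.82 points), without passing. That from the shared peaks did not pass among CpG-rich centres (-4.46 points, adjusted exact p = 0.52) and did among the other centres (15.8% against 34.7%, adjusted exact p = 0.039).

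The ETS-type box CCGGAAG was present in 170 peaks (8.02%), against 3.40% of the broad (adjusted exact p = 4.61e-06) and 4.10% of the E9.5-only peaks (adjusted p = 0.0079; 0.15 with 200 bp windows) and 10.2% of all protein-coding 5′ ends. The difference from the broad peaks was 5.36 points under 1 kb from the start (adjusted exact p = 0.0010). It did not pass among CpG-rich centres (6.28 points, adjusted exact p = 0.098) and had the opposite sign among the other centres (-0.51 points) and at 1 to 5 kb (-1.42 points), without passing. The difference from the E9.5-only peaks did not pass among CpG-rich centres (4.415 points, adjusted exact p = 0.27) or the other centres (0.61 points). Its sign was opposite at 1 to 5 kb (-1.554 points). It passed under 1 kb, with 500 bp windows and with the window on the start (adjusted exact p from 0.0031 to 0.027). The YY1-type letters AAGATGGC (3.30% against 1.32%, adjusted exact p = 0.0042) and the NRF1-type letters CGCATGCG (1.65% against 0.33%, adjusted p = 0.0055) were more frequent than in the broad peaks, and were present in 3.64% and 1.81% of all protein-coding 5′ ends. Under 1 kb from the start both passed (adjusted exact p = 0.0095 and 0.016). Among CpG-rich centres alone neither passed (adjusted exact p = 0.30 and 0.86), nor did either at 1 to 5 kb (adjusted exact p = 1 for both). The NRF1-type letters also did not pass with 200 bp windows (adjusted exact p = 0.061) or with the window on the start (adjusted exact p = 0.062). The NF-Y box CCAAT was less frequent, at 20.6% against 27.3% of the broad (adjusted exact p = 2.33e-04) and 25.7% of the E9.5-only peaks (adjusted p = 0.040). With the window on the nearest start it was 28.2% against 26.8% of the broad peaks (adjusted exact p = 0.59), and against the E9.5-only peaks it did not pass under 1 kb, with 200 or 500 bp windows or with the window on the start (adjusted exact p from 0.11 to 0.91). In the 500 bp at the centre and in the window on the start it was more frequent than in the shared peaks (adjusted exact p = 0.018 and 0.0072). It was present in 32.4% of all protein-coding 5′ ends. TGACGTCA, the CREB-type site, the E box CACGTG, TGACTGAC and TATAAA did not pass in any of the 3 comparisons of the 300 bp at the centre. Against the E9.5-only peaks, TATAAA was less frequent with 500 bp windows (6.51% against 12.3%, adjusted exact p = 1.91e-04) and with the window on the start (5.62% against 11.0%, adjusted exact p = 2.55e-04), where CACGTG was more frequent (7.98% against 4.54%, adjusted exact p = 0.022). At the centre the 4 were present in 0.71%, 5.24%, 1.23% and 3.73% of the peaks and in 1.83%, 6.75%, 1.13% and 9.32% of all protein-coding 5′ ends.

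**Figure D4:**
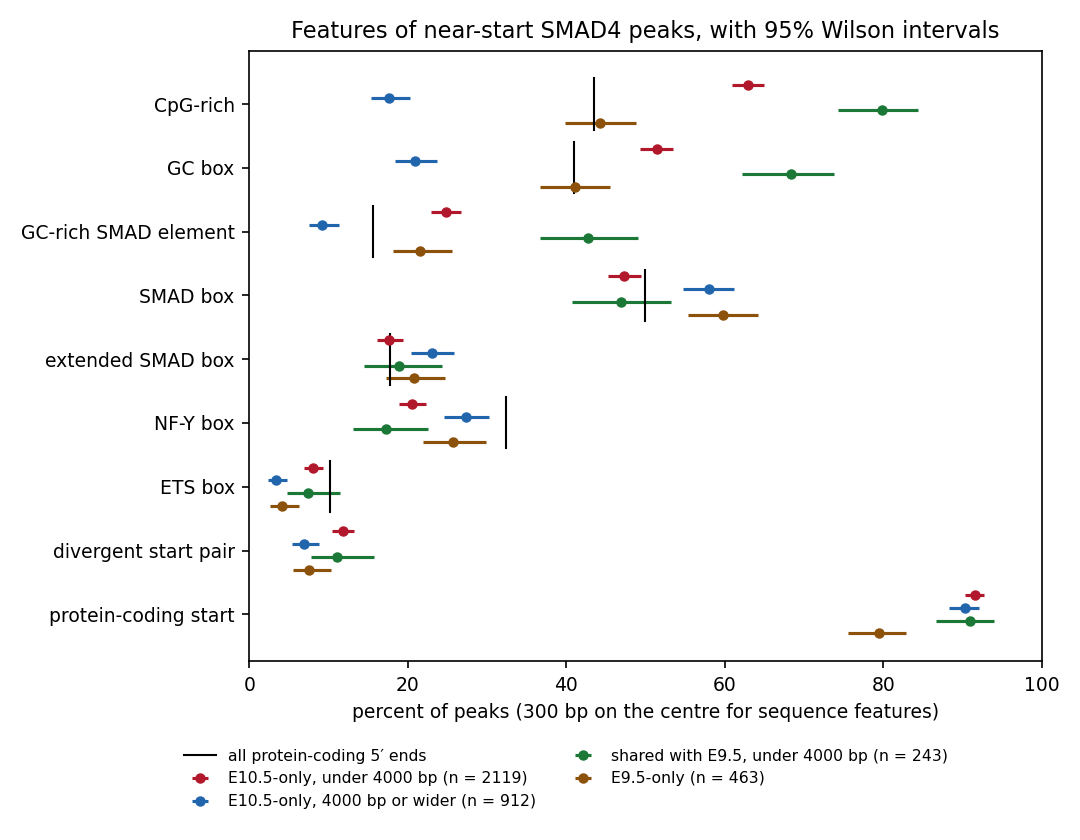
Percent of peaks (horizontal axis) with each feature (vertical axis) in 4 classes of near-start peaks, with 95% Wilson intervals as bars and all protein-coding 5′ ends as a black line; the GC box is GGGCGG, the GC-rich SMAD element GGCGCC, the SMAD box CAGAC, its extended form CAGACC, the NF-Y box CCAAT and the ETS box CCGGAAG. For CpG-rich centres the narrower E10.5-only peaks, at 63.0%, lie between the shared peaks at 79.8% and the E9.5-only and broad peaks at 44.3% and 17.7%.

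The starts themselves were mostly of protein-coding genes. The nearest start belonged to a protein-coding gene for 1941 peaks (91.6%), against 79.5% of the E9.5-only peaks (12.1 points, interval 8.47 to 16.2, adjusted exact p = 1.28e-11) and 90.4% of the broad peaks (adjusted p = 0.42). At 1 to 5 kb the share was lower than in the broad peaks (79.4% against 87.8%, -8.37 points, adjusted exact p = 0.023). The difference from the E9.5-only peaks passed under 1 kb (8.79 points, adjusted exact p = 1.37e-05) and among centres that were not CpG-rich (15.3 points, adjusted exact p = 1.09e-05), and did not at 1 to 5 kb (9.88 points, adjusted exact p = 0.12) or among CpG-rich centres (3.46 points, adjusted exact p = 0.22). A start of another gene on the opposite strand within 1 kb, the pair pointing away from each other, was present at 250 peaks (11.8%), against 6.91% of the broad peaks (adjusted exact p = 1.53e-04) and 7.56% of the E9.5-only peaks (adjusted p = 0.022; 0.60 among centres under 1 kb from the start). The difference from the broad peaks was 5.10 points under 1 kb (adjusted exact p = 0.013). It did not pass among CpG-rich centres (6.33 points, adjusted exact p = 0.22) and had the opposite sign among the other centres (-2.055 points) and at 1 to 5 kb (-2.625 points), without passing. Of the 250 peaks at such divergent pairs, 86.8% had a CpG-rich centre and 16.4% held CCGGAAG, where the other 1869 had 59.8% and 6.90%. The centre lay in an intron for 788 peaks (37.2%), in an untranslated exon part for 515 (24.3%), in coding exon sequence for 375 (17.7%), in an exon of a transcript with no coding sequence for 77 and outside any gene for 364 (17.2%).

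A protein-coding gene was counted as having such a peak when the peak centre lay within 5 kb of any of its transcript 5′ ends. This held for 2258 of 22380 protein-coding genes (10.1%), and for 1940 of the 12371 whose start is CpG-rich (15.7%) against 318 of the other 10009 (3.18%). For the other classes the share of all protein-coding genes was 4.44% (broad), 1.16% (shared) and 1.85% (E9.5-only). These shares are the background against which gene lists are read below, and no list was tested. Most of the genes, 2194, had 1 such peak and 62 had 2. A peak had 1 protein-coding gene within reach in 1698 cases, 2 in 291, 3 in 15 and none in 115. Of the 2258 genes, 569 (25.2%) also had an E9.5 peak within 100 kb, as did 21.7% of all protein-coding genes.

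In the BMP and TGF-β pathway, 11 of 45 genes (24.4%, interval 14.2% to 38.7%) had a peak of this kind, beside 10.1% of all protein-coding genes. With a width limit of 3000 bp the count was 7. All 11 were among the 40 of the list with a CpG-rich start (27.5%, beside 15.7%). Another 8 genes of the list had a shared narrower peak, beside 1.16% of all protein-coding genes. A broad E10.5-only peak was counted for 3 (beside 4.44%) and an E9.5-only near-start peak for 5 (beside 1.85%). Smad6 had both a shared and an E9.5-only one. Among receptors, Acvr2b, a type II receptor for activins, GDF11 and some BMPs, had the best score after Fst (189, chr9:119309981-119313597, centre in an intron 170 bp downstream of the start). Bmpr1a, a type I BMP receptor needed in limb mesenchyme, had a peak of 87.8 centred 22 bp from its start (chr14:35314964-35316738). Tgfbr1, the type I receptor of TGF-β, had one of 80.7 centred at -514 bp (chr4:47363990-47367170).

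Among ligands and extracellular inhibitors, the peak at Fst, whose product follistatin binds and blocks activins, scored 192 and was centred at -656 bp (rank 50, chr13:115248527-115251102). An E9.5 peak lay 27294 bp away from it, nearer than at any other of the 11 genes but Id2. Gdf6, a BMP-family ligand of developing joints, had a peak of 82.5 (chr4:9769886-9772937, -107 bp). Gdf11, which patterns the axial skeleton, had one of 68.6 (chr10:128326961-128330578, 4 bp), and the TGF-β ligand gene Tgfb2 one of 52.2 (chr1:188527538-188530489, 155 bp). The central 300 bp at Fst and at Tgfbr1 each held 2 copies of CAGAC with 1 of CAGACC, Acvr2b held 3 copies of GGCGCC and no CAGAC, and Tgfb2 held neither.

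The intracellular mediators Smad4, Smad5 and Smad9 also had such peaks. The peak at Smad4 itself, the gene of the tagged protein, scored 94.1 and was centred 135 bp downstream of the start (chr18:73862314-73864283). Smad5 scored 50.2 (chr13:56803002-56805582, -79 bp) and Smad9 54.8 (chr3:54558707-54560512, 106 bp), both below the median of 62.9. Of the Id genes, which encode inhibitors of basic helix-loop-helix factors and are common targets of BMP signalling, Id2 had a peak of this kind and Id1 and Id3 had shared ones. The Id2 peak was weak and away from the start (42.4, rank 5701, chr12:25777042-25778901, centre at 2985 bp, not CpG-rich), and an E9.5 peak lay 1269 bp from its edge.

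Of the 22 genes of the FGF pathway, 7 had such a peak (31.8%, interval 16.4% to 52.7%; 3 with a width limit of 3000 bp). A broad peak was counted for 6, beside 4.44% of all protein-coding genes, and Fgfr2 and Fgfr4 had both kinds. Among the best scores were those of Etv5, an ETS factor that acts downstream of FGF signals (92.9, -167 bp), and of the receptor Fgfr2 (68.5, 183 bp). The feedback inhibitors Spry2 (59.4) and Spry4 (54.3) had peaks of 3691 and 3816 bp, near the upper limit of width. In the WNT pathway 5 of 37 genes (13.5%; 2 with a width limit of 3000 bp) had such a peak and 8 had a broad one (beside 4.44%). The receptor gene Fzd8 with 94.96, the kinase gene Gsk3b with 72.5 and Fzd3 with 65.1 were the best scored. In the NOTCH pathway there were 3 of 27 (11.1%). The peak at Hes1, a transcriptional repressor and NOTCH target, scored 85.4, was centred 4194 bp downstream of the start and lay 334 bp from an E9.5 peak, and Hes1 also had a shared peak. Those at Hey2, a related repressor (66.8, -7 bp), and Rbpj, the DNA-binding partner of NOTCH (55.5, 38 bp), were centred on the start. In the SHH pathway 1 of 13 genes had one (4 with a width limit of 5000 bp), Hhip, whose product binds and limits hedgehog ligands (111, 103 bp).

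Among transcription factors of the limb bud, 15 of 54 genes (27.8%, interval 17.6% to 40.9%; 8 with a width limit of 3000 bp) had such a peak. A broad one was counted for 14, beside 4.44% of all protein-coding genes, and Tbx3 and Zbtb16 had both. Besides Etv5, the best scored were Sox6, a factor of cartilage differentiation (81.3, -394 bp), and Zbtb16, a zinc finger factor of skeletal patterning (73.4, in a coding exon at 3154 bp). Peaks centred within 100 bp of the start were found at Tbx3, a T-box factor of anterior and posterior limb mesenchyme (62.0, 31 bp), Shox2, a homeobox factor of the proximal limb (65.2, 87 bp), and Dlx6 (48.9, 98 bp). Pbx3 (55.0, -130 bp) and Pknox1 (55.0, 325 bp), TALE homeobox factors, had peaks of 3095 and 3425 bp. Dlx5 and Osr2 had peaks away from the start, at 3156 bp and -2636 bp. Alx1, Lhx2, Meis1 and Pax9 scored from 53.5 to 69.8. Etv5 is counted in both this list and the FGF list. Of the HOX genes 11 of 39 (28.2%, interval 16.5% to 43.8%; 6 with centres within 1 kb) had such a peak. A broad one was counted for 9 (beside 4.44% of all protein-coding genes) and an E9.5-only one for 6 (beside 1.85%). The best scored of the narrower peaks were those of Hoxd3 (90.3), Hoxc12 (89.4) and Hoxc4 (83.6). The peak counted for Hoxd3 lay 4443 bp downstream of its start and was nearer to 6720416L17Rik, and a single peak of score 80.1 was counted for both Hoxa9 and Hoxa10, with the microRNA gene Mir196b as its nearest start. The peak at Hoxd13, which patterns the digits, scored 61.8 and was centred at -100 bp.

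**Figure D5:**
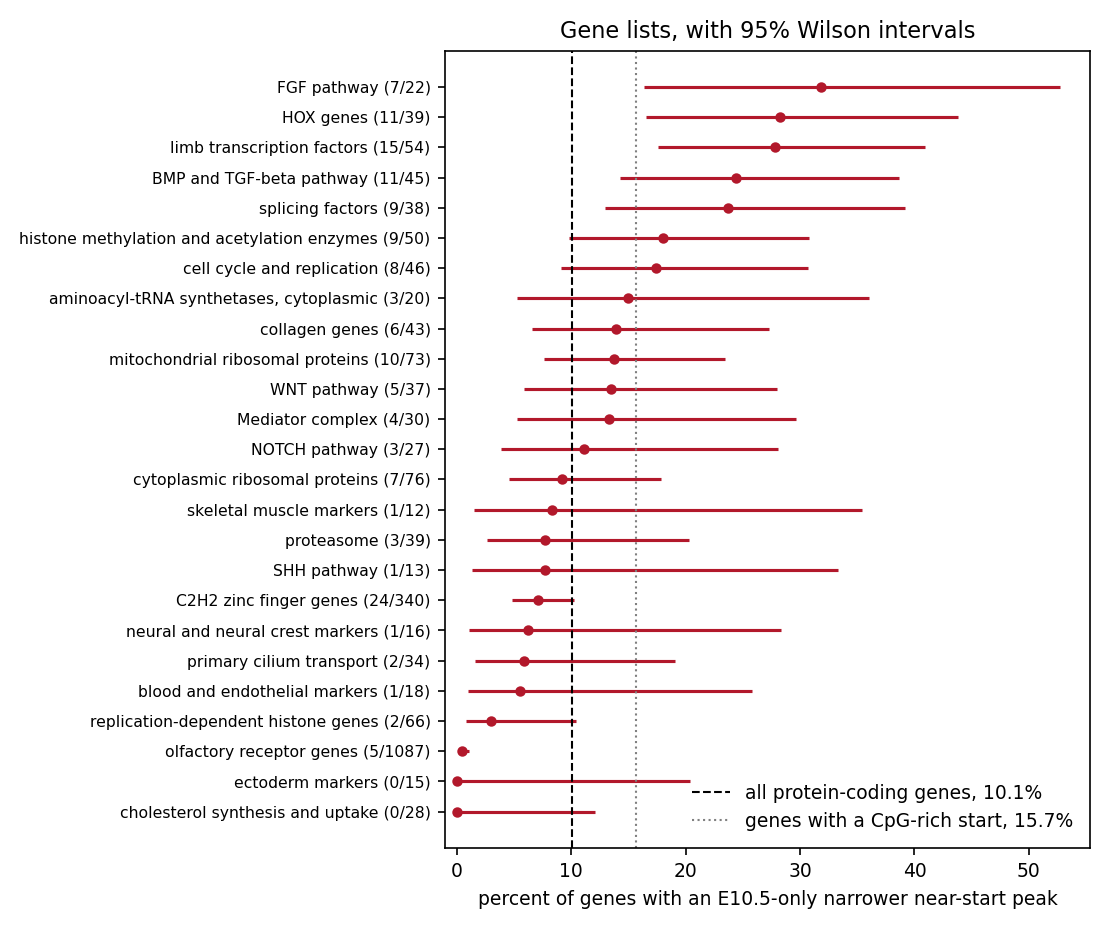
Percent of the genes of each list (vertical axis, with counts) that have an E10.5-only narrower near-start peak (horizontal axis), with 95% Wilson intervals as bars, and the background shares of 10.1% and 15.7% as vertical lines. FGF pathway, HOX, limb transcription factor and BMP lists lie highest at the limits used here, from 31.8% to 24.4%, and cholesterol synthesis and ectoderm markers are at 0.

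Shares of the lists of genes used by every cell lay on both sides of the 10.1% of all protein-coding genes. Among the lists of this and the next paragraph, only the interval of the splicing factors excluded that value. Over genes with a CpG-rich start alone, the background was 15.7%. Above it lay splicing factors (23.7%), histone enzymes (18.75%) and cell cycle genes (18.2%). Below it lay synthetases (15%), mitochondrial (14.5%) and cytoplasmic ribosomal proteins (9.59%), Mediator (10.7%), proteasome (8.33%), cilium (6.67%) and cholesterol genes (0%). Of 38 splicing factor genes, all with a CpG-rich start, 9 (23.7%, interval 13.0% to 39.2%) had such a peak. That interval includes the 15.7% of all genes with a CpG-rich start. None of the 38 had a broad (4.44% of all protein-coding genes), a shared (1.16%) or an E9.5-only peak (1.85%). The best scored of the 9 were the SR-protein genes Srsf10 (99.2, 56 bp) and Srsf1 (94.7, 258 bp, nearer to Gm11508), and Prpf6 (74.8), whose peak was nearer to Samd10. Of 50 histone methylation and acetylation enzyme genes 9 (18%) had one, led by the H3K36 methyltransferase Setd2 (109, -3 bp) and the demethylases Kdm2a (104) and Kdm3a (100.8). Of 46 cell cycle and replication genes 8 (17.4%) had one, with E2f3, an activator of S-phase genes, at 151 and the retinoblastoma family members Rb1 at 70.1 and Rbl1 at 69.0.

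Mitochondrial ribosomal protein genes had such a peak in 10 of 73 cases (13.7%), and fewer did when each peak counted for its nearest gene only. Mrpl18 (85.8, nearer to Tcp1), Mrps27 (83.9, nearer to Ptcd2) and Mrpl17 (79.1) were the best scored. Of cytoplasmic ribosomal protein genes 7 of 76 (9.21%, interval 4.53% to 17.8%) had such a peak, again fewer by the nearest gene only. Of the 76, 73 have a CpG-rich start. The best scored of the 7 was counted for Rpl7 (104) and was nearer to Rdh10, and Rps10 (79.4) and Rps25 (63.3, nearer to Trappc4) followed. Aminoacyl-tRNA synthetases had 3 of 20 (15%: Yars 87.9, Cars 80.1, Rars 63.1), the Mediator complex 4 of 30 (13.3%, Med31 57.0, Med19 53.8 and Med20 53.4 being the best) and the proteasome 3 of 39 (7.69%: Psmc5 90.2, Psmc6 83.4, Psma7 53.1). Primary cilium transport genes had 2 of 34 (5.88%), Ift52 at 59.0 and Ift80 at 50.5. None of 28 genes of cholesterol synthesis and uptake had such a peak, while Cyp51 had a shared and Srebf1 an E9.5-only one.

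Collagen genes had such a peak in 6 of 43 cases (13.95%), and fewer did with a width limit of 3000 bp. Col9a2 (72.0), Col12a1 (65.0) and Col27a1 (63.1) were the best scored. Of 340 C2H2 zinc finger genes 24 (7.06%) had one, with Zfp367 (173), Zfp395 (81.0) and Zfp326 (78.5) in front. Of 1087 olfactory receptor genes 5 (0.46%) did, none of the list having a CpG-rich start, with Olfr1349 (63.4), Olfr12 (50.4) and Olfr1394 (50.4) as the best scored. The 2 of 66 replication-dependent histone genes, Hist1h1b and Hist1h3i, shared 1 peak of 50.3. The dissected tissue holds cell types other than mesenchyme. Of their markers, such a peak was counted for 1 of 18 blood and endothelial markers (Flt1, a VEGF receptor, 72.4), 1 of 16 neural and neural crest markers (Pou4f1, 76.8), 1 of 12 skeletal muscle markers (Myog, 71.9) and 0 of 15 ectoderm markers (interval up to 20.4%). The intervals of all 4 shares include the 10.1% of all protein-coding genes, so these counts do not set the markers apart, and 4 of the 18 blood and endothelial and 5 of the 12 muscle markers had a CpG-rich start. Which cells of the pooled buds carried any of the peaks was not tested.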

How the data were processed

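SMAD4-3xFLAG ChIP-seq had been carried out on 4 groups of 2 samples (SMAD4 and input at each stage). Per the labels and the study's methods, reads were aligned to mm9 with Bowtie 1.1.0, peaks were called in each replicate against input with MACS 1.4 at a permissive p-value of 0.01, and replicates were then combined with MSPC. The deposited files are 2 peak lists whose only measurement is a score, as the authors' callers gave it, with no unit in the file. A peak whose score lies near the calling limit may therefore be in 1 list and missing from the other.

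Intervals were compared by at least 1 bp of overlap, and starts were transcript 5′ ends of GENCODE vM1 on NCBIM37, the same assembly as mm9, with 0 peaks past a chromosome end. Sequence features were read in 300 bp at the peak centre on both strands. Shares were compared by two-sided Fisher's exact tests with Benjamini-Hochberg adjustment, in Python 3.11.15 with NumPy 2.4.6, SciPy 1.17.1, pandas 2.3.3 and pysam 0.24.0. Overlap, motif and test functions were tested on simulated data. The peaks and the 25 gene lists were chosen with earlier results of these data known. Genes named are the 10 best-scored peaks, up to 3 best-scored genes of each list, the GTCTAGAC peaks, the 3 genes with the most peaks and 3 peaks on each side of each limit. Some genes that this rule names are not reported here. All other list genes named were added after their values were seen. List symbols were matched to the annotation directly or through RefSeq synonyms, 28 of 30 for cholesterol synthesis, 13 of 14 for the SHH pathway, 54 of 55 limb factors and all of the other lists. Alternatives varied the distance and width limits, the kind of start, the score floor, the window and the gene assignment.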

Additional observations from a re-analysis of the deposited data

How the results depend on the processing

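No paired analysis was possible because the replicates of each stage had been combined into 1 list before deposit, and for the same reason no replicate could be left out. With a score floor of 60 or 100 in both lists the peaks numbered 1242 and 222, and with the other limits on distance, width and neighbouring E9.5 peaks the number stayed within 1.5 times 2119. The share containing the start was 93.96% with a distance limit of 2.5 kb, 99.25% at 1 kb, 86.43% with protein-coding starts only, and 90.9% and 96.4% at the score floors. The share at divergent pairs was 13.79% at 1 kb, 7.685% with protein-coding starts only (fewer starts can pair) and 13.69% at a score of 60. CpG-rich centres made up 68.68% at 2.5 kb, 73.91% at 1 kb, 65.47% with protein-coding starts only, 67.91% and 57.81% with width limits of 3000 and 5000 bp, and 73.03% and 83.33% at the score floors. Protein-coding genes with such a peak were 8.99% at 2.5 kb, 8.324% at 1 kb, 8.213% and 11.54% with the width limits, 6.251% and 1.086% at the score floors, and 8.454% when each peak counted for its nearest gene only. Of the gene list counts under these alternatives, 172 stayed within 1.5 times and 53 did not. A width limit of 3000 bp gave 2 genes of the WNT list and 2 of the collagen list, and one of 5000 bp gave 8 of the WNT and 5 of the NOTCH list. Counting the nearest gene only gave 7 HOX, 3 cytoplasmic and 5 mitochondrial ribosomal protein genes. The score floors were applied to both lists before the choice, so that a peak whose E9.5 partner lies below the floor is then counted. At 60 the counts were 9 limb factors and 4 splicing factors. At 100 they were 4 genes of the BMP and TGF-β list, 1 HOX gene and 0 of the FGF and limb factor lists. Peaks outside the 2119 are included. In the BMP and TGF-β list only the peaks at Fst (192) and Acvr2b (189) were among the 2119 and reached 100. No HOX peak of the 2119 did, the best being that of Hoxd3 (90.3). Shares of single motifs followed the window length, as longer windows hold more letters.

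Compared within 1 to 5 kb of the start, 1 of 16 features separated the narrower from the broad peaks and 0 separated them from the E9.5-only peaks (Fisher's exact test; 2 at an unadjusted p under 0.05). Differences from the broad peaks there were 5.086 points for CpG-rich centres, -3.586 for CAGAC, 3.545 for GGCGCC, -0.2305 for GGGCGG, -1.418 for CCGGAAG, -2.625 for divergent pairs, none of which passed, and -8.37 for protein-coding starts (adjusted exact p = 0.023). Differences from the E9.5-only peaks there were 5.768 for CpG-rich, -3.664 for CAGAC, -0.8173 for GGGCGG, -1.554 for CCGGAAG and 0.2168 for GTCTAGAC. Under 1 kb, 9 features separated them from the broad, 4 from the shared and 5 from the E9.5-only peaks, GGGCGG not from the last (2.1 points). Within CpG-rich centres, 1 feature passed in each of the 3 comparisons, and within other centres 0 against the broad (2 at an unadjusted p under 0.05) and 1 against the E9.5-only peaks. Within CpG-rich centres the difference from broad peaks was -4.862 for CAGAC, 0.3534 for GGCGCC and 2.185 for CCAAT. It was -4.465 from the shared and -4.247 from the E9.5-only peaks for GGGCGG. Within other centres it was -1.738 for CAGAC, 2.519 for GGCGCC, 3.013 for GGGCGG, -0.5148 for CCGGAAG and -2.055 for divergent pairs against the broad peaks, -10.21 for GGCGCC and -14.16 for divergent pairs against the shared (the last passing, adjusted exact p = 0.0097), and -2.259 for CAGAC and 3.005 for GGGCGG against the E9.5-only peaks. With 500 bp windows 5 features separated the shared peaks and GGCGCC the E9.5-only ones (8.658 points, adjusted exact p = 0.0011), and with 200 bp windows 5 separated the E9.5-only ones. With the window on the start, 5 separated the shared peaks, GGCGCC the E9.5-only ones (7.129 points, adjusted exact p = 0.0049), and CCAAT neither the broad (1.419) nor the E9.5-only peaks (0.7439). The splits by centre and the window on the start were chosen after seeing the data, and the cause of these shifts was not tested. Depth is unknown.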

Other observations

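Chromosome X carried 47 of the 2119 peaks (2.22%) and 4.17% of the protein-coding genes. None of the 912 broad E10.5-only near-start peaks lay on it, which at 3 counts of the total allows a share of up to 0.33%, and 2 of the 243 shared and 5 of the 463 E9.5-only near-start peaks did. The difference from the broad peaks was 2.22 percentage points (95% Newcombe interval 1.53 to 2.94). Those from the shared peaks (1.395 points, interval -0.80 to 2.33) and the E9.5-only peaks (1.138 points, interval -0.39 to 2.09) had intervals that include 0. The whole E10.5 list had 68 peaks on this chromosome.

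Cwc22, a splicing factor needed for exon junction complex assembly, had 4 of the peaks within 5 kb of its transcript starts, more than any other protein-coding gene, with scores of 55.3, 55.5, 50.3 and 66.0 and widths from 490 to 2206 bp, the last of them the only one with a CpG-rich centre. D430042O09Rik had 3 of them, scored 86.1, 70.7 and 41.3, of which the first was nearer to Gtf3c1. Among the 62 genes with 2 was 4921513D23Rik (83.4 and 53.7, the second nearer to Nde1).

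The nearest start was that of a lincRNA for 42 of the peaks, of a miRNA for 20 and of a snoRNA for 20. The best scored at lincRNA starts were Dleu2 (146), the host transcript of a microRNA cluster, and Gt(ROSA)26Sor (143), the ROSA26 transcript, centred 30 bp and 54 bp from the start. At miRNA starts they were Mir688 (104), Mir196b (80.1), which lies in the HOXA cluster, and AL669855.1 (78.7), one of the 4 peaks with GTCTAGAC. At snoRNA starts the best scored was a peak of 72.0 by a SNORA17 copy. These genes were chosen after their values were seen.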
